A study of Mus musculus with 12 samples.

Results

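The transcripts followed here are those of 9 Kruppel-like factors, Klf2, Klf3, Klf4, Klf6, Klf7, Klf9, Klf10, Klf12 and Klf13, in early blood progenitors sorted from the bone marrow of mice and given a leukaemia fusion gene, a shortened form of it or neither. Every array probe set annotated with a single symbol equal to a member was taken, which gave 35 probe sets among the 34945 so named and 9 of 18193 genes. The genes were chosen by their symbols with the results of these arrays in view, above all the higher Klf3 signal in INV16 than in MIB control arrays, so the members' values in that comparison are a description, and neither a p nor a conclusion is drawn from them. The cells, sorted as negative for lineage markers and Flt3 and positive for c-Kit and Sca-1, were grown for 24 h in 10% serum with stem cell factor (50 ng/ml) and interleukin 6 (5 ng/ml). They were exposed to retrovirus for 4 h and kept for another 20 h, and RNA of the GFP-positive cells was amplified in repeated rounds and hybridised to 1 Affymetrix array per sample.

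The INV16 group (4 arrays, replicates 1 to 4) received a virus encoding INV16, the fusion of the core binding factor subunit CBFB with the smooth muscle myosin MYH11. The ACD mutant group (3 arrays, replicates 1 to 3) received that fusion without its assembly competent domain, described by the submitters as non-leukemogenic. The MIB control group (5 arrays, replicates 3 to 7) received the empty vector. All groups thus share normal marrow as the source, the sort, the cytokines and a viral vector. Each replicate was a separate sort and transduction according to the design text, and the strain, sex and age of the mice and any pooling are not given in the sources used here. The fusion was present for 24 h at most, from a vector and not from the gene's own locus.

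Kruppel-like factors are transcription factors whose C2H2 zinc fingers bind GC-rich stretches and CACCC boxes in promoters, a preference they share with the Sp factors. They fall into classes by partner: Klf3 and Klf12 recruit the corepressor CtBP, Klf2, Klf4, Klf6 and Klf7 act largely as activators, and Klf9, Klf10 and Klf13 bind the corepressor Sin3A. In blood the family is best known for Klf1, which drives red cell genes, Klf2, which keeps T lymphocytes quiescent, and Klf4, which favours monocytes.

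Levels are log2 signals as the authors summarised them, so a difference of 1 is a doubling of signal, and precision is limited by how few arrays there are. The levels of different probe sets are not comparable, since each has its own probes. INV16 replicate 4 lay far from the other 11 arrays and is described alone. Since each array is a separate sort and transduction, p-values measure the spread between those. The 7 progenitor markers averaged 7.20 on INV16 replicate 4 against 10.43 to 11.02 on the others, and the 7 mast cell markers 10.81 against 5.87 to 6.66. Of the 7 progenitor markers 5 were below all other arrays, Kit (10.99) lay within their range and Gata2 (11.74) was above it. On the other 11 arrays the progenitor markers Kit, Cd34, Hoxa9 and Sox4 were all well above the filter, and of the 7 mast cell markers 4 (Fcer1a, Cma1, Mcpt4 and Il4) had a mean below it, while Cpa3 spanned 9.31 to 11.38, Ms4a2 7.76 to 10.61 and Tpsb2 5.57 to 6.08. The arrays also fell into a split by their hybridisation controls: the bacterial spike-in BioC exceeded BioB by 1.17 to 1.31 on INV16 replicates 1 to 3 and MIB control replicates 3 to 5 (split A) and by -0.016 to 0.20 on the ACD mutant arrays, MIB control replicates 6 and 7 and INV16 replicate 4 (split B). Apart from replicate 4, INV16 and ACD mutant arrays therefore never shared a split, while each shared one with some MIB control arrays. Arrays within split B were still not alike in these controls. There BioB itself measured 7.40, 7.29 and 6.98 on the ACD mutant arrays, against 8.41 and 8.66 on MIB control replicates 6 and 7.

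Differences were fitted with limma on the 11 arrays, over the 22677 probe sets with 1 symbol and a mean above 5.07 (the 40th percentile), and a probe set was called at an adjusted p under 0.05. Of the 35 member probe sets, 23 passed this filter on the mean, and the other 12 are given by their ranges. In INV16 against MIB control 3 member probe sets were past the threshold, all of Klf3 and all higher, and 0 were lower, beside 0.648% of all probe sets called higher and 0.728% lower; since these values chose the members, the count only describes them. In the ACD mutant against MIB control 1 was called higher, of Klf7, and 0 lower, beside 1.02% higher and 0.684% lower among all. In INV16 against the ACD mutant 0 were called higher and 1 lower, of Klf13, beside 0.234% and 1.03%. At an unadjusted p under 0.05, 6 member probe sets (26.1% of the 23) differed in each of the comparisons with the ACD mutant, beside 19.6% of all probe sets in the ACD mutant against MIB control and 18.3% in INV16 against the ACD mutant. The latter comparison uses the INV16 arrays whose Klf3 signal chose the members, and Klf3 sets are among its 6. Its share is therefore only a description. Across the 23, the median difference was 0.15 for INV16 minus MIB control, 0.18 for the ACD mutant minus MIB control and 0.14 for INV16 minus ACD mutant, with 19, 18 and 14 above zero. The medians over all probe sets tested were -0.019, 0.0030 and -0.0092, and 46.1%, 50.5% and 48.5% of them were above zero. The 23 include 6 sets of Klf3 and so are not independent, and INV16 minus MIB control chose the members. The counts above zero therefore only describe them. Both fusions were set against the same MIB control arrays, so their directions are not independent.

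**Figure D1:**
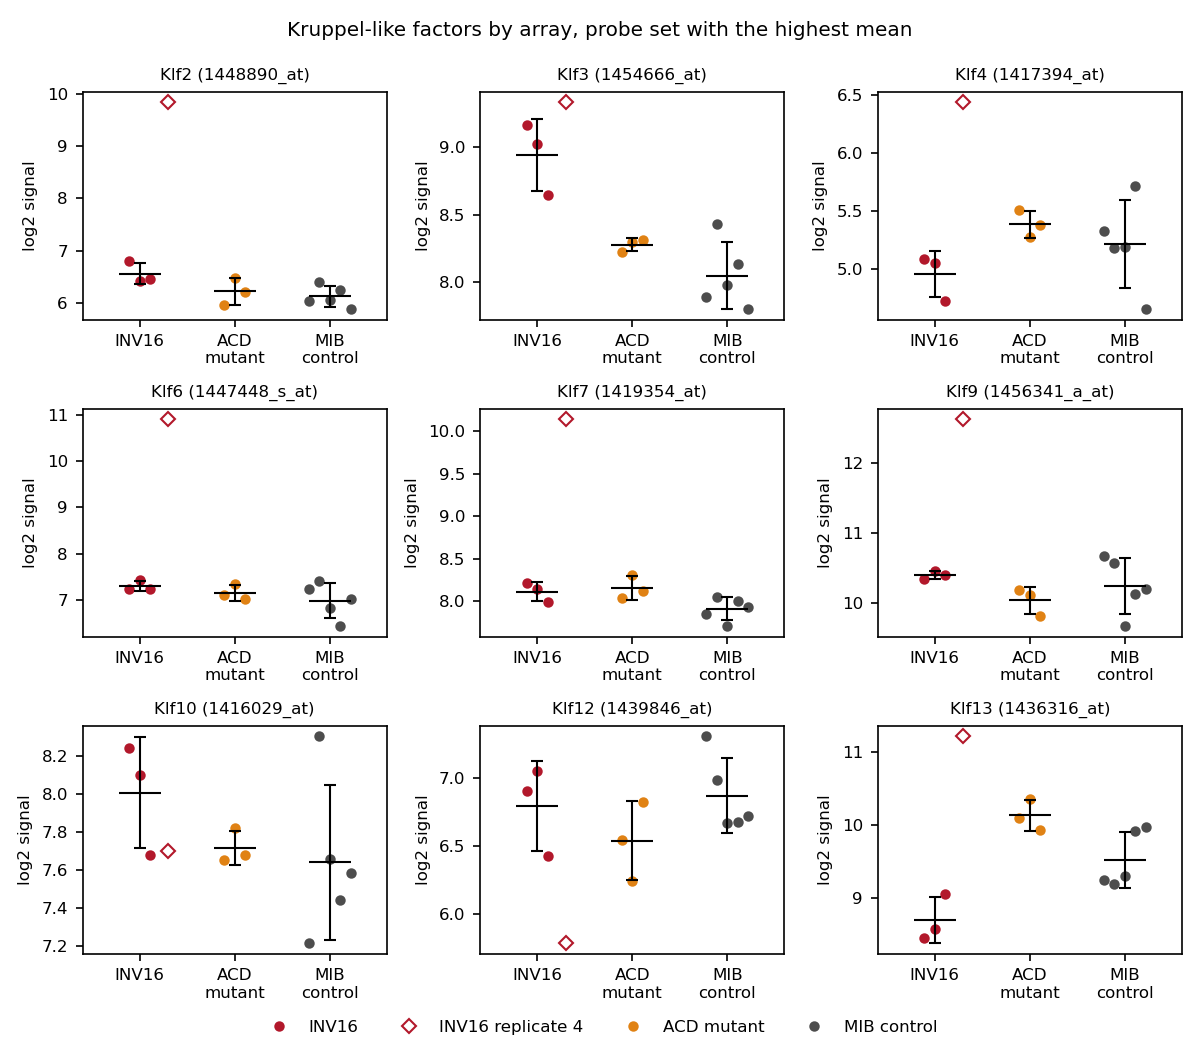
Log2 signal on each array (vertical axis, a range of its own in each panel) for the probe set with the highest mean of each of the 9 genes, by group. Filled points are arrays, black bars the mean and SD of INV16 replicates 1 to 3, the 3 ACD mutant and the 5 MIB control arrays, and the open diamond is INV16 replicate 4. Klf3 is highest on the INV16 arrays, Klf13 lowest on INV16 replicates 1 to 3, and replicate 4 lies far above the rest for Klf2, Klf6, Klf7 and Klf9.

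Klf3, a CtBP-dependent repressor that Klf1 switches on in red cell precursors, was the member highest in INV16 relative to MIB control. Its probe set 1454666_at measured 9.16, 9.02 and 8.64 in INV16 replicates 1 to 3, then 8.23, 8.30 and 8.32 in the ACD mutant, and 7.89, 8.43, 7.98, 8.14 and 7.80 in MIB control. All 3 INV16 arrays lay above every other array, and the ACD mutant arrays lay inside the MIB control range. The means were 8.94 ± 0.27 in INV16 (SD, n = 3), 8.28 ± 0.047 in the ACD mutant (SD, n = 3) and 8.05 ± 0.25 in MIB control (SD, n = 5). The INV16 minus MIB control difference was 0.89 (SE 0.15), a 1.85-fold higher signal, and 0.84 within split A. The ACD mutant minus MIB control difference was 0.23 (SE 0.15, limma adjusted p = 0.449). INV16 minus ACD mutant was 0.66 (SE 0.17, limma adjusted p = 0.0733), which missed the threshold.

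In INV16 against MIB control the Klf3 probe sets agreed in direction but not in size. Set 1429360_at measured 7.43, 7.25 and 6.91 in INV16, then 6.47, 6.71 and 6.75 in the ACD mutant, and 6.60, 6.57, 6.33, 6.25 and 6.23 in MIB control, again with every INV16 array on top. Its INV16 minus MIB control difference was 0.80 (SE 0.14), and 0.70 within split A. Set 1431630_a_at measured 8.31, 8.21 and 8.40 in INV16, then 8.07, 8.12 and 7.99 in the ACD mutant, and 7.80, 7.98, 7.95, 7.75 and 7.90 in MIB control. There the order of the groups did not overlap, and INV16 exceeded MIB control by 0.43 (SE 0.096). Set 1441200_at differed from these: it measured 8.05, 7.94 and 8.14 in INV16 and 8.18, 8.02 and 7.98 in the ACD mutant, both above the 7.73, 7.79, 7.73, 7.87 and 7.77 of MIB control, by 0.26 and 0.28 (SE 0.094 each). INV16 and the ACD mutant overlapped on that set, with a difference of -0.017 (SE 0.10). The sets 1458487_at and 1421604_a_at gave 0.11 and 0.29 for INV16 minus MIB control, and 1442920_at, below the filter, spanned 3.77 to 4.23 on the 11 arrays. Over the 6 sets past the filter INV16 was above MIB control in 6, by 0.11 to 0.89, and above the ACD mutant in 5, by 0.0094 to 0.66. As a description, without INV16 replicate 1 the differences from MIB control were 0.78 for 1454666_at, 0.68 for 1429360_at and 0.43 for 1431630_a_at, and without INV16 replicate 2 they were 0.85, 0.77 and 0.48, none past the threshold. Of the 11 fits with an array left out, 1454666_at and 1429360_at were past it in 9 each and 1431630_a_at in 1. Since these values chose the members, the counts only describe the fits and test nothing. In bulk RNA such as this, fewer cells of a type and less RNA per cell cannot be told apart. In the same comparison 5 of 5 neutrophil markers past the filter were below zero (median -1.27), and S100a8, the 1 called, averaged 5.27 ± 0.23 in INV16 (SD, n = 3) and 8.35 ± 1.30 in MIB control (SD, n = 5) and fell by 3.08 (SE 0.56, limma adjusted p = 0.0190). The mean of the 6 neutrophil markers was 6.47 to 7.00 on INV16 arrays and 7.25 to 9.22 on MIB control arrays. All 5 megakaryocyte markers past the filter were also below zero (median -0.45), with 0 called. In every other marker list some were above zero. The part of these markers in the Klf3 difference was not tested.

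Promoters are shown for the 3 genes with a probe set past the threshold. The stretch runs from 250 bases before to 50 after the RefSeq start on mouse GRCm38.p6, 5′ to 3′ on the strand of the gene, with CACCC boxes on either strand in capitals (as GGGTG where the box is on the other strand). That of Klf3, at chr5:64803271-64803570 on the + strand, held 5 boxes, the nearest beginning 48 bases before the start and the farthest 230. Of all 32851 promoters of this length 57.5% held at least 1 such box, 9.35% held 3 or more and 1.02% held 5 or more, and the Klf3 stretch is 76.7% G and C against a median of 52.7% over all promoters.
Klf3: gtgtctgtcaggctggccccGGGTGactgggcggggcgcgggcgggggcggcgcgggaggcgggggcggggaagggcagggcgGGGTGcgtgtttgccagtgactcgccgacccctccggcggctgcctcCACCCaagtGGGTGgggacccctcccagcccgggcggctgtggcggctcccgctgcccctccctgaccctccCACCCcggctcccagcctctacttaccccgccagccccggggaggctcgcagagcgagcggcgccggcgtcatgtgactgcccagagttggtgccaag

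The letters TGTGGT and TGCGGT, cores of the binding site of RUNX factors, the partners of CBFB, were searched on both strands and can share end letters with a CACCC box. They were in 0 of the 8 member promoters on hand, those of all members but Klf10. Among all promoters 16.8% held TGTGGT and 6.45% held TGCGGT.

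Klf12, which also works through CtBP, did not differ by the test. Its probe set 1439846_at measured 6.91, 7.05 and 6.42 in INV16, then 6.54, 6.24 and 6.82 in the ACD mutant, and 7.30, 6.99, 6.67, 6.67 and 6.72 in MIB control. The groups overlapped throughout. The differences were -0.077 (SE 0.19) for INV16 minus MIB control, -0.33 (SE 0.19, limma adjusted p = 0.365) for the ACD mutant minus MIB control and 0.26 (SE 0.21, limma adjusted p = 0.561) for INV16 minus ACD mutant. The other 4 Klf12 probe sets lay below the filter, between 3.92 and 5.05 on the 11 arrays.

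Among the activators, Klf7, a widely expressed factor best known for nerve cells, gave the sole call in the ACD mutant against MIB control. Its probe set 1419356_at measured 7.67, 7.69 and 7.36 in the ACD mutant, against 6.59, 6.43, 5.73, 6.56 and 7.10 in MIB control. The INV16 arrays measured 6.41, 6.85 and 6.42. Every ACD mutant array was thus above every MIB control and INV16 array, and MIB control replicate 5 was the lowest of all. The transcript rose by 1.09 (SE 0.23, 2.13-fold, limma adjusted p = 0.0425) in the ACD mutant relative to MIB control, and INV16 minus ACD mutant was -1.01 (SE 0.26, limma adjusted p = 0.0748). INV16 differed from MIB control by 0.079 (SE 0.23).

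The other Klf7 probe sets did not follow. Set 1419354_at, the one with the highest mean, measured 8.21, 8.14 and 7.99 in INV16, then 8.03, 8.30 and 8.12 in the ACD mutant, and 7.85, 8.05, 7.70, 8.0 and 7.94 in MIB control, with overlapping groups. For the ACD mutant minus MIB control it gave 0.24 (SE 0.11, limma adjusted p = 0.248), 1419355_at gave 0.29 (SE 0.15, limma adjusted p = 0.331) and 1449439_at -0.097 (SE 0.14, limma adjusted p = 0.772). The call on 1419356_at thus came from 1 of 4 sets. The MIB control arrays themselves averaged 6.83 in split B and 6.25 in split A on that set, and the call ended with the split as a block (0.74, SE 0.25, limma adjusted p = 0.193) and within split B (0.74, SE 0.18, limma adjusted p = 0.0891). The ACD mutant arrays also had a 3′ minus 5′ difference of Gapdh, a sign of RNA quality, of 3.17, 1.98 and 1.63, against 1.45, 1.48, 1.34, 1.64 and 1.76 in MIB control. In the same comparison 5 of 5 megakaryocyte, 5 of 5 monocyte and 3 of 3 mast cell markers past the filter were above zero (medians 0.95, 0.60 and 1.12), with 0 called. Of the mast cell markers below the filter, Fcer1a (4.36 against 5.07), Cma1 (4.75 against 4.82) and Mcpt4 (4.28 against 4.32) averaged lower in the ACD mutant, and Il4 higher (4.73 against 4.69). The part of the Gapdh difference and of the markers in the Klf7 result was not tested. The call was lost without any one of INV16 replicate 1, 2 or 3 (difference 1.09, limma adjusted p = 0.0596, 0.0525 and 0.0503), ACD mutant replicate 1 or 2 (1.04 and 1.03, limma adjusted p = 0.198 and 0.187), or MIB control replicate 4, 5 or 6 (1.08, 0.90 and 1.11, limma adjusted p = 0.0597, 0.0580 and 0.0552). The Klf7 promoter, at chr1:64121340-64121639 on the - strand, held 3 CACCC boxes, all on the opposite strand and beginning between 111 and 138 bases before the start.
Klf7: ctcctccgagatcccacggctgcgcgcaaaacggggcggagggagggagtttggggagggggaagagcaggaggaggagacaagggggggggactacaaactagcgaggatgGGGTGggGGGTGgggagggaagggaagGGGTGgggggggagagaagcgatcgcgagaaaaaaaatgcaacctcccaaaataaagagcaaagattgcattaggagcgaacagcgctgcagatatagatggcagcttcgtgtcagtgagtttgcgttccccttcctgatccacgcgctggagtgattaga

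Klf2, the quiescence factor of T lymphocytes, measured 6.80, 6.42 and 6.46 in INV16 (probe set 1448890_at), then 5.96, 6.48 and 6.21 in the ACD mutant, and 6.04, 6.40, 6.05, 6.25 and 5.88 in MIB control. All 3 INV16 arrays were above the MIB control arrays, narrowly so for replicate 2, and overlapped the ACD mutant. The differences were 0.44 (SE 0.15) for INV16 minus MIB control, 0.096 (SE 0.15, limma adjusted p = 0.790) for the ACD mutant minus MIB control and 0.34 (SE 0.17, limma adjusted p = 0.306) for INV16 minus ACD mutant.

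Klf4, known from monocytes and from reprogramming of cells to pluripotency, was close to the filter. Its set 1417394_at measured 5.09, 5.05 and 4.73 in INV16, then 5.51, 5.27 and 5.38 in the ACD mutant, and 5.33, 5.19, 5.19, 5.72 and 4.65 in MIB control. INV16 was below the ACD mutant on every array, by -0.43 (SE 0.21, limma adjusted p = 0.299), and both overlapped MIB control, from which they differed by -0.26 (SE 0.19) and 0.17 (SE 0.19, limma adjusted p = 0.682). Set 1417395_at, below the filter, spanned 4.34 to 4.72: 4.34 to 4.43 in INV16, 4.56 to 4.72 in the ACD mutant and 4.50 to 4.71 in MIB control.

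Klf6, induced early by many stimuli, had 3 of 5 probe sets past the filter. Set 1447448_s_at measured 7.25, 7.43 and 7.24 in INV16, then 7.11, 7.36 and 7.02 in the ACD mutant, and 7.23, 7.41, 6.83, 6.44 and 7.03 in MIB control, overlapping throughout. Set 1427742_a_at measured 7.12, 7.37 and 7.04 in INV16, then 6.74, 7.26 and 7.02 in the ACD mutant, and 6.63, 6.85, 6.53, 6.73 and 6.65 in MIB control. On this set every INV16 array was above MIB control, by 0.50 (SE 0.13) on average, against 0.32 and 0.15 for 1447448_s_at and 1433508_at. The ACD mutant exceeded MIB control by 0.18 to 0.33 on the 3 sets (limma adjusted p = 0.192 to 0.663), and INV16 minus ACD mutant was -0.071 to 0.17 (limma adjusted p = 0.578 to 0.880). The 2 sets below the filter spanned 3.47 to 5.21. Of these 1418280_at spanned 5.01 to 5.17 in INV16, 4.48 to 5.21 in the ACD mutant and 4.10 to 4.82 in MIB control.

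Klf13, which binds Sin3A and in human T lymphocytes drives the chemokine CCL5, gave the sole call between the fusions. Its probe set 1436316_at measured 8.45, 8.58 and 9.06 in INV16, against 10.10, 10.36 and 9.93 in the ACD mutant. The MIB control arrays measured 9.24, 9.19, 9.29, 9.91 and 9.97. Every INV16 array lay below, and all ACD mutant arrays but replicate 3 above, the whole MIB control range. The transcript fell by 1.44 (SE 0.23, limma adjusted p = 0.0144) in INV16 relative to the ACD mutant, a 2.71-fold lower signal. The means were 8.70 ± 0.32 in INV16 (SD, n = 3), 10.13 ± 0.21 in the ACD mutant (SD, n = 3) and 9.52 ± 0.39 in MIB control (SD, n = 5). INV16 minus MIB control was -0.82 (SE 0.21), and the ACD mutant minus MIB control 0.61 (SE 0.21, limma adjusted p = 0.131).

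The other Klf13 probe sets differed in size or sign. Set 1432543_a_at measured 7.34, 7.42 and 7.29 in INV16, then 7.82, 8.20 and 8.0 in the ACD mutant, and 7.73, 7.43, 7.25, 7.92 and 7.66 in MIB control. INV16 was again below the ACD mutant on every array, by -0.66 (SE 0.16, limma adjusted p = 0.0691), short of the threshold. Set 1456030_at measured 5.01, 5.21 and 5.53 in INV16, then 5.13, 5.32 and 5.05 in the ACD mutant, and 5.13, 5.16, 5.12, 5.20 and 5.00 in MIB control, with a difference of 0.085 (SE 0.14) between INV16 and the ACD mutant. Sets of this gene thus disagreed by up to 1.52 in that comparison.

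The Klf13 signal also moved with the spike-in split inside the MIB control group, where 1436316_at averaged 9.94 in split B and 9.24 in split A, and with markers of other cell types and the Gapdh difference. The 5 megakaryocyte markers averaged 7.31 to 7.42 on INV16 arrays, 8.71 to 9.13 on ACD mutant arrays and 7.36 to 9.46 on MIB control arrays, and 5 of 5 were lower in INV16 than in the ACD mutant, by a median of -1.68, with 0 called. All 5 were above the filter. Among the other lists 5 of 5 monocyte markers past the filter were also lower in INV16 than in the ACD mutant (median -0.77). Of these Irf8 was called at -1.50 (SE 0.31, limma adjusted p = 0.0354). So were 3 of 3 mast cell markers past the filter (median -1.45, Tpsb2 by only -0.048) and 5 of 5 neutrophil markers (median -0.71), with 0 called. Of the mast cell markers below the filter, Fcer1a (4.98 against 4.36), Cma1 (5.20 against 4.75) and Mcpt4 (4.33 against 4.28) averaged higher in INV16, and Il4 lower (4.66 against 4.73). The 3′ minus 5′ difference of Gapdh was 1.33, 1.10 and 1.53 on INV16 replicates 1 to 3, against 3.17, 1.98 and 1.63 on the ACD mutant arrays. Within split A INV16 minus MIB control was -0.54, and within split B the ACD mutant minus MIB control was 0.19. With the split as a block INV16 minus ACD mutant was -0.74 (SE 0.24, limma adjusted p = 0.378), so the call ended, and fusion and split cannot be told apart directly, since INV16 and ACD mutant arrays shared no split. The part of the markers and of the Gapdh difference was not tested. The call was also lost without INV16 replicate 1 or 2 (-1.32 and -1.38, limma adjusted p = 0.0643 and 0.0730) or ACD mutant replicate 1 or 2 (-1.45 and -1.32, limma adjusted p = 0.0558 and 0.0847). The Klf13 promoter, at chr7:63938866-63939165 on the - strand, held 1 CACCC box, which begins 22 bases before the start.
Klf13: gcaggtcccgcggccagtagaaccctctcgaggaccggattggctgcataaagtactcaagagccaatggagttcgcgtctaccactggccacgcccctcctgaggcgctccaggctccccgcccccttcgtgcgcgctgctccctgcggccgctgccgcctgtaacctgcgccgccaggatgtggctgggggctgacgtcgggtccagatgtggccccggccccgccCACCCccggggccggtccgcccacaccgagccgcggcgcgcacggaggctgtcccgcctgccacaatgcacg

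**Figure D2:**
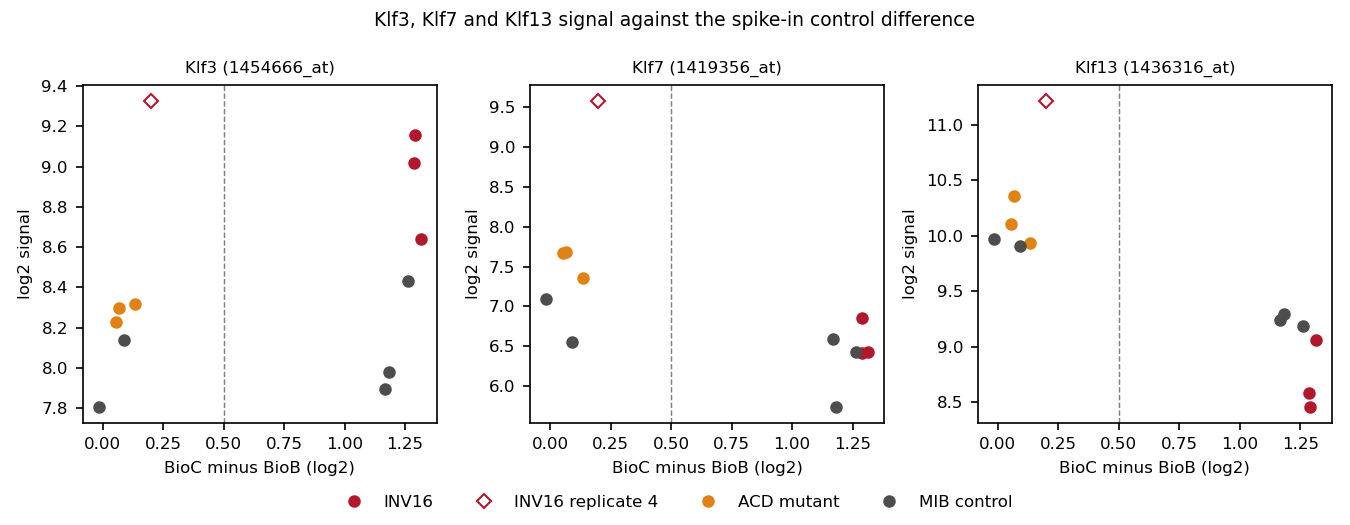
Log2 signal of Klf3 1454666_at, Klf7 1419356_at and Klf13 1436316_at (vertical axes) against BioC minus BioB (horizontal axis, log2), 1 point per array, colours for groups, an open diamond for INV16 replicate 4 and a dashed line at the split of 0.5. The MIB control arrays average 7.97 in split B and 8.10 in split A on the Klf3 set shown. On Klf3 1429360_at, not shown, they average 6.24 and 6.50. Their Klf13 signal is 0.70 higher in split B.

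Klf9, a factor that glucocorticoids and thyroid hormone induce, did not differ by the test. Set 1456341_a_at measured 10.33, 10.46 and 10.39 in INV16, then 10.18, 10.10 and 9.81 in the ACD mutant, and 10.67, 10.57, 9.66, 10.12 and 10.19 in MIB control. INV16 lay inside the MIB control range and above the ACD mutant, by 0.36 (SE 0.21, limma adjusted p = 0.398). Over the 3 sets past the filter the differences were 0.024 to 0.15 for INV16 minus MIB control, -0.22 to 0.032 for the ACD mutant minus MIB control and -0.0082 to 0.36 for INV16 minus ACD mutant. The other 4 sets, below the filter, spanned 3.58 to 4.86.

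Klf10, also called TGF-beta inducible early gene, measured 8.24, 8.10 and 7.68 in INV16 (probe set 1416029_at), then 7.66, 7.82 and 7.68 in the ACD mutant, and 7.22, 8.31, 7.66, 7.44 and 7.59 in MIB control. The groups overlapped, and the differences were 0.37 (SE 0.21) for INV16 minus MIB control, 0.078 (SE 0.21, limma adjusted p = 0.885) for the ACD mutant minus MIB control and 0.29 (SE 0.23, limma adjusted p = 0.544) for INV16 minus ACD mutant.

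**Figure D3:**
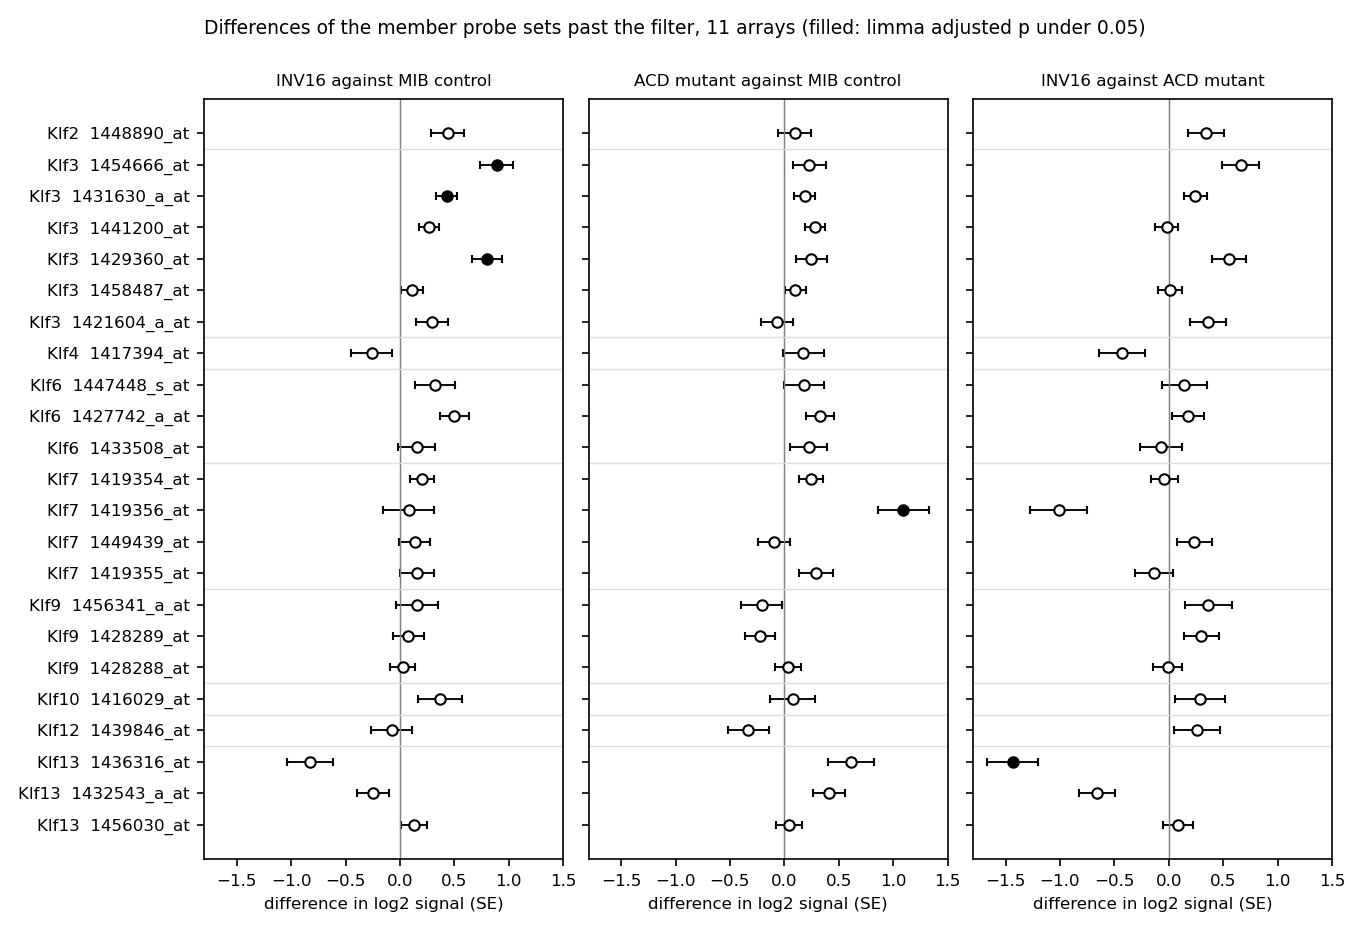
Difference in log2 signal with its SE (horizontal axes) for the 23 member probe sets past the filter (rows, grouped by gene) in INV16 against MIB control, the ACD mutant against MIB control and INV16 against the ACD mutant, 11 arrays. Filled points passed the limma threshold: 3 Klf3 sets, 1 Klf7 set and 1 Klf13 set, each beside sets of the same gene that did not.

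INV16 replicate 4 carried high levels of most members. It lay above all 11 other arrays on 18 of the 23 member probe sets past the filter and below them on 1. Among all 22677 probe sets past the filter it was above on 7015 (30.9%) and below on 8815. Its median deviation from INV16 replicates 1 to 3 was 1.48 over the member sets, against -0.074 over all probe sets. Klf6 measured 10.90, 9.44 and 10.35 on its 3 sets, 3.59, 2.26 and 3.79 above the mean of the other INV16 arrays, and Klf2 measured 9.83, 3.27 above it. The 4 Klf7 sets deviated by 1.47 to 3.03, the 3 Klf9 sets by 2.23 to 2.72 and Klf13 1436316_at by 2.52, while Klf4 deviated by 1.48. The Klf12 set 1439846_at was the one below the others, at 5.78 against 6.24 to 7.30, and Klf10 at 7.70 lay within their range. Klf3 was less uniform: 1454666_at, 1431630_a_at and 1441200_at were above all other arrays, and the other 3 sets were within the range. The deviations of those above, from the mean of INV16 replicates 1 to 3, were 0.39, 0.63 and 0.76. Of the 12 sets below the filter 8 were above all other arrays, among them the remaining Klf6 sets at 8.64 and 6.76, and 2 were below, both of Klf12. The share over all sets below the filter was not counted.

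Of the 15 immediate early genes, which respond early to stimulation, 14 were above all other arrays on replicate 4 and 1, Myc, was below them, at 8.51 against 10.83 to 11.27. Among all 22677 probe sets past the filter 30.9% were above all other arrays. Fos measured 13.81, Egr1 13.00 and Dusp1 12.81, against 8.09 to 9.53, 6.81 to 8.84 and 7.52 to 8.71 on the other 11. These 4 were named after their values were seen. Klf1, the red cell factor, measured 10.72 there, against 6.21 to 7.31. All 5 erythroid markers measured, Klf1 among them and 2 of them past the filter, were above all other arrays, by uneven margins. They averaged 7.14 on replicate 4, against 5.06 to 5.57. Of those below the filter, Hba-a1 measured 4.57 on replicate 4 against 3.96 to 4.56, so it was barely above. Slc4a1 measured 4.95 against 4.21 to 4.50, and Alas2 6.25 against 3.84 to 4.27. Epor, past the filter, measured 9.20 against 6.73 to 8.30. The array also had the highest 3′ minus 5′ difference of Gapdh, 3.64 against 1.10 to 3.17 on the others. The part of the mast cell and erythroid markers and of the Gapdh difference in these levels was not tested. With this array in the fit the threshold was passed by 1 member probe set in INV16 against MIB control, Klf3 1454666_at, and by 0 in both other comparisons, beside 0.212%, 0.022% and 0.0882% of all probe sets in either direction.

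**Figure D4:**
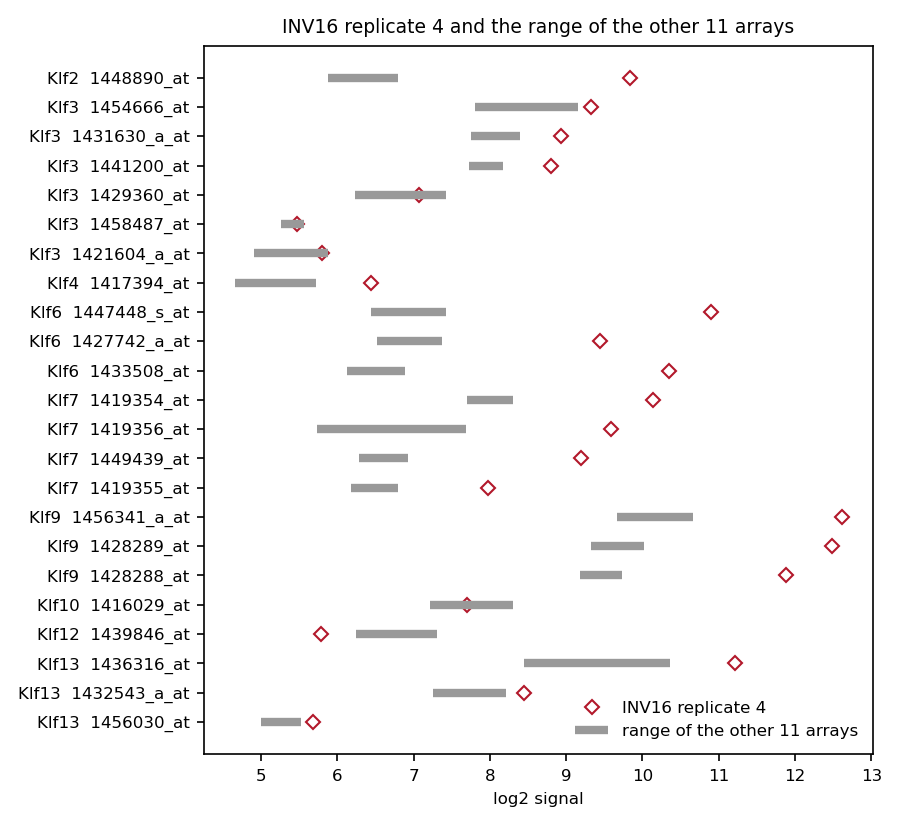
Log2 signal of INV16 replicate 4 (open diamonds) and the range of the other 11 arrays (grey bars) on the horizontal axis for the 23 member probe sets past the filter (rows). Replicate 4 is above the bar on 18 sets, below it on 1, Klf12 1439846_at, and inside it on the rest.

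Genes around the family were taken from lists, with 1 probe set for each gene. The lists were chosen with earlier results of these data known, so the share called in them is only a description. Among all 12897 genes 60 were called higher and 119 lower in INV16 against MIB control. The numbers were 111 and 79 in ACD mutant relative to MIB control arrays, and 26 and 152 in INV16 against the ACD mutant. Of the other Kruppel-like factors 6 of 7 on the array passed the filter and 0 were called in any comparison. Klf1 averaged 6.32 ± 0.15 in INV16 (SD, n = 3), 6.94 ± 0.12 in the ACD mutant (SD, n = 3) and 6.67 ± 0.37 in MIB control (SD, n = 5), and Klf16 was 0.24 lower in INV16 than in MIB control (SE 0.13, limma adjusted p = 0.395). Of 5 Sp factors and 12 corepressors and coactivators past the filter 0 were called: in INV16 relative to MIB control Sp6 differed by 0.30 (SE 0.12), Sp3 by -0.47 (SE 0.23), Ctbp1, the corepressor used by Klf3, by -0.30 (SE 0.13) and Wwp1, a ubiquitin ligase, by 0.21 (SE 0.10). Of the 8 genes of the kinase cascade and factors upstream of Klf2, 0 were called, with Map3k3 at 0.38 (SE 0.12, limma adjusted p = 0.139) and Mef2a at 0.18 (SE 0.11) in INV16 relative to MIB control.

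Among known targets 2 genes were called, both in INV16 against MIB control. S1pr1, the lipid receptor that Klf2 turns on in T lymphocytes, averaged 6.79 ± 0.13 in INV16 (SD, n = 3) and 6.07 ± 0.21 in MIB control (SD, n = 5) and rose by 0.72 (SE 0.14, limma adjusted p = 0.0298). The other 4 Klf2 targets on the array did not pass. Ccnd1, the cyclin that Klf4 represses, averaged 7.40 ± 0.20 in INV16 (SD, n = 3) and 8.75 ± 0.61 in MIB control (SD, n = 5) and fell by 1.35 (SE 0.27, limma adjusted p = 0.0317), with the other 4 Klf4 targets past the filter not called. Lgals3, which Klf3 represses, averaged 7.54 ± 0.64 in INV16 (SD, n = 3), 9.68 ± 0.16 in the ACD mutant (SD, n = 3) and 8.13 ± 1.09 in MIB control (SD, n = 5). For it INV16 minus MIB control was -0.59 (SE 0.49, limma adjusted p = 0.635) and INV16 minus ACD mutant -2.14 (SE 0.55, limma adjusted p = 0.0733). The second Klf3 target measured, C1qtnf12, differed by -0.53 (SE 0.16, limma adjusted p = 0.130) between INV16 and MIB control. Between INV16 and the ACD mutant it differed by -0.12 (SE 0.18, limma adjusted p = 0.760).

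Genes known to share inducers with members came from lists chosen in the same way. Of 8 glucocorticoid-induced genes, the setting in which Klf9 is known, Sgk1 rose by 0.96 (SE 0.20, limma adjusted p = 0.0342) and Fkbp5 fell by 0.61 (SE 0.11, limma adjusted p = 0.0172) in INV16 relative to MIB control, and 0 were called in the ACD mutant. Of 7 early TGF-beta targets, the setting of Klf10, only the corepressor Ski was called, lower in INV16 by -0.67 relative to MIB control (SE 0.14, limma adjusted p = 0.0350) and by -0.86 relative to the ACD mutant (SE 0.16, limma adjusted p = 0.0228). Of 12 immediate early genes past the filter 0 were called in any comparison. In INV16 relative to MIB control Jun differed by 0.80 (SE 0.20, limma adjusted p = 0.0823) and Ier3 by -1.05 (SE 0.27, limma adjusted p = 0.0847). Mouse probe sets need not detect the fusion: Cbfb averaged 12.37 ± 0.14 in INV16 (SD, n = 3), 12.12 ± 0.0016 in the ACD mutant (SD, n = 3) and 12.42 ± 0.19 in MIB control (SD, n = 5), and none of the 6 Runx1 sets was called (differences in INV16 against MIB control of -0.035 to 0.65).

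By Pearson's r over the 11 arrays, among 12888 genes and as a description of arrays that share groups and split, the genes most like Klf3 1454666_at were Raph1 (0.967), Hdac9 (0.939) and Map2k6 (0.939), and the least like it Slc20a1 (-0.962) and Cpne2 (-0.954). Klf13 1436316_at, which had the widest range of the members' leading sets, 1.91, was most like Syk (0.972), Plec (0.971) and Atp13a2 (0.970) and least like Hoxa7 (-0.957) and Dock9 (-0.945). For the other members the most similar genes were Slc45a2 for Klf2 (0.892), Fpr2 for Klf4 (0.912), Spred1 for Klf6 (0.917), Mef2a for Klf7 (0.965), 4632427E13Rik for Klf9 (0.840), Rfx3 for Klf10 (0.922) and Mynn for Klf12 (0.958).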

How the data were processed

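RNA of 12 samples (4 INV16, 3 ACD mutant, 5 MIB control) was measured on 1 Affymetrix array each. The deposited values are log2 signals that the authors had already summarised and scaled; the values, 2.82 to 14.97, show the base, and how they were summarised is not given in the sources here. Samples were grouped by their titles, with 0 sample columns left unused. The platform annotation gave the gene symbols (34945 with 1 symbol after controls were left out, 932 with several, 9160 with none). Sets with 1 symbol and a mean over 11 arrays above the 40th percentile (22677 sets, 12897 genes) were fitted with limma 3.58.1 in R 4.3.3, 3 group means, INV16 replicate 4 left out (residual degrees of freedom 8, prior 4.66), two-sided, with Benjamini-Hochberg adjustment over all sets and a threshold of 0.05. The fit was tested on simulated data.

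Members, lists and tests were chosen with earlier results of these data known. Every member set is accounted for. The set with the highest mean is described for each member, with others where they disagree in sign or by over 0.5. Of each list up to 4 called genes are named, or the 2 with the smallest p in INV16 against MIB control, and Cbfb, Runx1, S1pr1, Lgals3 and Klf1 whatever their test; genes outside this rule are said to be so. Alternatives were all 12 arrays, 1 set per gene, other filters, quantile normalization, 2-group fits, a variance trend, the spike-in split and the replicate number as blocks, fits within a split, and each array left out. No 2 arrays held the same values: arrays of 1 group differed with an SD of 0.22 to 0.37 over probe sets, INV16 replicate 4 left out. Promoters come from RefSeq (GRCm38.p6), matched by symbol for 8 of 9 members.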

Additional observations from a re-analysis of the deposited data

Results flagged for a closer look

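Of 46 groups of member values tested with Dixon's ratio at the 95% level, 12 held a value far from the rest, and chance flags about 1 in 20 groups. That rate does not test the count, since the groups share arrays and often a gene, and so are not independent. INV16 replicate 4 was the far value in 11, set against the other 3 INV16 arrays each time. This array had been set apart beforehand, so its flags only describe it. Replicate 4 measured 9.83 for Klf2 1448890_at (the others 6.42 to 6.80). For Klf6 it measured 10.90 on 1447448_s_at (7.24 to 7.43), 9.44 on 1427742_a_at (7.04 to 7.37) and 10.35 on 1433508_at (6.25 to 6.73). For Klf7 it measured 10.14 on 1419354_at (7.99 to 8.21), 9.59 on 1419356_at (6.41 to 6.85) and 9.20 on 1449439_at (6.62 to 6.75). For Klf9 it measured 12.62 on 1456341_a_at (10.33 to 10.46), 12.48 on 1428289_at (9.62 to 10.00) and 11.88 on 1428288_at (9.47 to 9.59), and for Klf13 8.44 on 1432543_a_at (7.29 to 7.42). The remaining one was MIB control replicate 3, at 6.80 on Klf7 1419355_at, where the other 4 MIB control arrays measured 6.18 to 6.32.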

How the results depend on the processing

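Of the member probe sets, 3 were past the limma threshold in INV16 against MIB control, a description only, since those values chose the members. The number was 1 with all 12 arrays, with 1 set per gene, with only the 2 groups compared and with the spike-in split as a block, 0 within split A, and 0 to 4 when an array was left out (0 without INV16 replicate 1 or 2). In the ACD mutant against MIB control it was 1, and 0 with all 12 arrays, 1 set per gene, only the 2 groups, the split as a block or within split B, and 0 to 1 when an array was left out. In INV16 against the ACD mutant it was 1, with 0 for all 12 arrays and for the split as a block, 4 with only the 2 groups, and 0 to 2 when an array was left out. Other filters, quantile normalization and a variance trend gave 2 or 3, 1 and 1. The cause of these changes was not tested.

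With the replicate block the numbers were 0, 0 and 2. Arrays of the same number did not deviate together (correlations of deviations -0.32 to 0.025 over 5 pairs), so the numbers were not taken as pairs. Over all probe sets 312, 386 and 287 were called in the same order of comparisons, 48, 5 and 20 with all 12 arrays, 120, 121 and 1054 with only the 2 groups, 169, 20 and 0 with the split as a block, and 0, 7 and 271 with the replicate block. Within split A 12 and within split B 93 were called, and for the ACD mutant relative to MIB control quantile normalization gave 582 and 1 set per gene 217 (of 12897). Leaving out 1 array gave 38 to 619, 10 to 760 and 43 to 508.

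Only differences that missed the threshold changed sign. INV16 minus MIB control became 0.11 for Klf4 with all 12 arrays, -0.027 for Klf6 and -0.38 for Klf9 with the replicate block, and 0.032 and 0.11 for Klf12 without MIB control replicate 3 or INV16 replicate 3 (range over arrays left out -0.20 to 0.11). The ACD mutant minus MIB control became -0.058 for Klf4 and -0.17 for Klf6 with the replicate block, -0.035 for Klf2 without ACD mutant replicate 2 (range -0.035 to 0.22) and -0.028 for Klf10 without MIB control replicate 3 (range -0.028 to 0.24). INV16 minus ACD mutant became -0.28 for Klf6 and -0.036 for Klf12 with the split as a block. For Klf7 1419354_at it became 0.47 with all 12 arrays, 0.0091 after quantile normalization, 0.059 with the split as a block, and 0.020 and 0.034 without INV16 replicate 3 or ACD mutant replicate 2 (range -0.10 to 0.034). The values used here carry no measure of background.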
